A study of Mus musculus with 15 samples.

Results

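The CELF proteins are a family of RNA-binding proteins encoded in the mouse by 6 genes, Celf1 to Celf6, and their mRNA was measured here by bulk RNA sequencing of tissue punches from the rostral ventrolateral medulla (RVLM), the brainstem region that holds the C1 neurons controlling sympathetic outflow. The members were taken by gene name from a count table of 55421 genes, and all 6 were present and passed the filter on low counts. The family was chosen by the level of Celf6, which had already been noted in these libraries as higher in control-virus mice on DOCA-salt than in control-virus mice at baseline, and lower after the Cre virus on DOCA-salt. The levels of Celf6 in those comparisons are therefore given as a description, with no test. Celf1 to Celf5 entered by family name and were tested in every comparison.

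CELF proteins bind UGU-rich stretches of RNA through several RNA recognition motifs. In the nucleus they promote or repress the inclusion of alternative exons, and in the cytoplasm they influence the stability and translation of mRNA. Celf1 and Celf2 are broadly expressed and are best known for opposing the muscleblind (MBNL) proteins in muscle, whereas Celf3, Celf4, Celf5 and Celf6 are found mainly in the nervous system. Celf4 is abundant in excitatory neurons, and its loss causes seizures in mice. Celf6 is enriched in serotonergic and other neuromodulatory neurons of the mouse brain, and mice without it show altered vocalization and behavior.

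All 15 mice carried loxP sites around exon 2 of Atp6ap2, the X-linked gene for the prorenin receptor (PRR), on a C57BL/6J background, and all were adults given adeno-associated virus bilaterally in the RVLM at least 3 weeks before collection. The DOCA-CRE group (3 libraries) carried PRRf/f, received a virus with Cre recombinase fused to GFP, and was then kept on DOCA-salt, an implanted 50 mg pellet of deoxycorticosterone acetate with 0.15 M NaCl as drinking fluid, for 13 days. The DOCA-WT group (4 libraries) carried PRRf/f, received a virus with GFP alone, and had the same DOCA-salt regimen. The Baseline-CRE group (4 libraries) received the Cre virus and the Baseline-WT group (4 libraries) the GFP virus, with no DOCA-salt and collection at 3 weeks. The study calls Cre mice PRR RVLM-Null and GFP mice WT. Its supplement gives the sizes of both DOCA-salt groups the other way round from the labels, and the labels were followed. The virus used a CMV promoter, which is not specific to neurons, and the punch could hold uninfected cells and tissue beyond the RVLM. The labels call every group female but give the hemizygous genotype PRRf/y to both baseline groups. Baseline and DOCA-salt mice also formed separate cohorts, so that the regimen, the cohort and the later collection cannot be told apart. Nothing in the labels says more of how the replicates were housed or processed, and p-values measure the spread between these samples.

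Total counts ran from 19053970 to 30504796 per library, and intervals and tests rest on 14852 protein-coding genes. Mitochondrial ribosomal RNA took 2.42 to 5.84% of counts in DOCA-WT libraries and 20.7 to 28.8% in Baseline-WT libraries. It took 3.32 to 19.1% in DOCA-CRE libraries and 20.3 to 25.5% in Baseline-CRE libraries, with the value of 19.1% in the library labelled DOCA-CRE replicate 3. By their sex-linked genes, 9 libraries looked female and 6 male, and the male pattern was in 2 of 3 DOCA-CRE, 1 of 4 DOCA-WT, 2 of 4 Baseline-CRE and 1 of 4 Baseline-WT libraries. For DOCA-CRE replicates 1 and 2 and DOCA-WT replicate 3 that pattern goes against both the female label and PRRf/f, since a male carries a single copy of an X-linked gene, and the only female-pattern DOCA-CRE library was replicate 3. The targeted gene, Atp6ap2, measured 90.2, 89.6 and 145 CPM (counts scaled to the library's total over tested genes and by the trimmed mean of M-values, TMM) in DOCA-CRE libraries and 142, 134, 154 and 144 CPM in DOCA-WT libraries. For this gene the library labelled DOCA-CRE replicate 3 was thus at the DOCA-WT level, unlike the other DOCA-CRE libraries. Its mitochondrial ribosomal RNA share was outside the DOCA-WT range and above the 4.80 and 3.32% of the other DOCA-CRE libraries. That share was just below the lowest baseline share, 20.3%, so these measures do not settle whether its label is right. The differences of the members and the counts of the serotonergic and splicing lists in comparisons with DOCA-CRE are also given without it. So are the markers of other lists that passed against DOCA-WT or in the interaction. The DOCA-CRE group then keeps replicates 1 and 2, both of male pattern. At baseline Atp6ap2 ran from 106 to 126 CPM in Baseline-CRE libraries and from 114 to 139 CPM in Baseline-WT libraries, so that the targeted gene does not check the labels there. Reads outside the deleted exon were counted as well.

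Promoters were searched because several members moved together. RefSeq (GRCm38.p6) gave 20 windows for Celf1, Celf2, Celf3, Celf5 and Celf6, each running from 250 bases before to 50 bases after a start site. The cAMP response element, TGACGTCA, which reads the same on both strands and is bound by CREB-type factors in neurons, was in windows of Celf3 and Celf6. Of all 32851 windows 1.79% held it, as did 2.03% of 27025 genes, and it was picked for printing after the member promoters had been read. The element stood 108, 111 and 139 bases before different start sites of Celf3, at chr3:94484208-94484237 on the plus strand. That stretch lies inside the Celf3 gene, within the span of other annotated transcripts that start upstream, the first at chr3:94478295 (Gencode vM21). In Celf6 the element stood 232 bases before a start site, at chr9:59578094-59578123 on the plus strand. It lies there within an annotated UTR of another Celf6 transcript (Gencode vM21). These stretches are shown for the members that share the element, with the element in capitals.
Celf3: ggcagaagtgaTGACGTCAccacggtcgcc
Celf6: tgctagctgtcTGACGTCActaagctcggg
The palindromic steroid receptor element was in none of the 20 member windows and in 0.00913% of all windows. The neuron-restrictive silencer element (RE1) was in none of the 20 and in 0.0122% of all. Both motifs were searched on both strands, and the absence of a match says only that these exact letters are not in these windows.

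The 6 genes lie on 5 chromosomes of GRCm38. Celf1 (ENSMUSG00000005506.16) spans chr2:90940382-91019497 on the plus strand and Celf2 (ENSMUSG00000002107.18) spans chr2:6539694-7509563 on the minus strand. Celf3 (ENSMUSG00000028137.9) spans chr3:94478295-94492198 on the plus strand. Celf4 (ENSMUSG00000024268.16) lies on the minus strand of chromosome 18. Celf5 (ENSMUSG00000034818.17) spans chr10:81459227-81482709 on the minus strand and Celf6 (ENSMUSG00000032297.11) spans chr9:59577917-59607292 on the plus strand. No annotated gene overlaps Celf1 or Celf6. Celf2 shares its span with 3 noncoding genes on its own strand and 4 on the other, Celf4 with 1 and 2, and Celf5 with 1 on the other strand, while Celf3 overlaps the protein-coding gene Riiad1 on the other strand. The library kit was stranded, but the counting setting was not given in the sources used here, so reads shared with these partners cannot be separated.

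The first comparison asked how the family differed between control-virus mice on DOCA-salt and control-virus mice at baseline. All 6 members had a higher mean in DOCA-WT mice, as 49.9% of all genes did by their fitted difference, and the neuronal members showed the larger differences. Celf3, Celf4 and Celf5 rose, by 1.76-fold, 2.22-fold and 2.90-fold, whereas Celf1 and Celf2 did not pass the test. Among all 14852 genes tested, 5.48% were called higher and 6.12% lower at an adjusted p of at most 0.05, against 3 of 5 tested members higher and 0 lower.

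Celf4, the most abundant member, measured 316, 358, 362 and 268 CPM in DOCA-WT libraries, against 125, 149.6, 154 and 159 CPM in Baseline-WT libraries. Every DOCA-WT library lay above every Baseline-WT library, a pattern found in 8.87% of genes tested. Its log2 difference was 1.15 (SE 0.13, adjusted p = 0.000135, edgeR quasi-likelihood test with Benjamini-Hochberg adjustment). Celf5, a brain-enriched member that is among the least studied, measured 15.9, 21.4, 32.4 and 22.8 CPM in DOCA-WT libraries, against 6.22, 8.80, 6.52 and 10.5 CPM in Baseline-WT libraries. The groups were again separate, although DOCA-WT replicate 3 stood well above the other DOCA-WT libraries. Its log2 difference was 1.54 (SE 0.23, edgeR adjusted p = 0.000994). Celf3, a neuronal splicing activator, measured 14.7, 18.5, 24.9 and 21.9 CPM in DOCA-WT libraries, against 9.72, 15.6, 9.89 and 10.4 CPM in Baseline-WT libraries. Here the groups overlapped, because Baseline-WT replicate 2 exceeded DOCA-WT replicate 1. The log2 difference of Celf3 was 0.82 (SE 0.18, edgeR adjusted p = 0.0107), while the exact two-sided permutation test gave p = 0.0571. For Celf4 and Celf5 that exact permutation p was 0.0286, the smallest that 4 against 4 libraries allow. Celf1, which did not pass the edgeR test, had the same exact permutation p of 0.0286, so that test did not order Celf3 above Celf1.

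Celf6 had the highest fold of the family in this comparison. Its level was 32.7, 39.0, 46.8 and 34.0 CPM in DOCA-WT libraries, against 8.39, 13.1, 10.6 and 10.2 CPM in Baseline-WT libraries. No DOCA-WT library came near the Baseline-WT range. The fitted log2 difference was 1.85 (SE 0.19), or 3.60-fold, from 796 to 1304 reads per DOCA-WT library and 120 to 161 reads per Baseline-WT library.

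The broadly expressed members differed less. Celf1 measured 49.2, 57.9, 77.6 and 54.9 CPM in DOCA-WT libraries, against 39.5, 45.1, 48.0 and 48.7 CPM in Baseline-WT libraries. The groups were separate by a narrow margin, and the log2 difference of 0.40 (SE 0.16, 95% interval 0.07 to 0.74) did not pass (edgeR adjusted p = 0.111). Its call depended on the setting, with an edgeR adjusted p = 0.0475 under scaling by library totals alone and a limma voom adjusted p = 0.0264. Celf2 measured 41.6, 52.4, 85.1 and 43.5 CPM in DOCA-WT libraries, against 37.8, 37.4, 38.0 and 46.0 CPM in Baseline-WT libraries. The DOCA-WT mean was lifted by replicate 3, the groups overlapped, and the log2 difference was 0.48 (SE 0.20, edgeR adjusted p = 0.135). Without DOCA-WT replicate 3 it was 0.21.

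**Figure D1:**
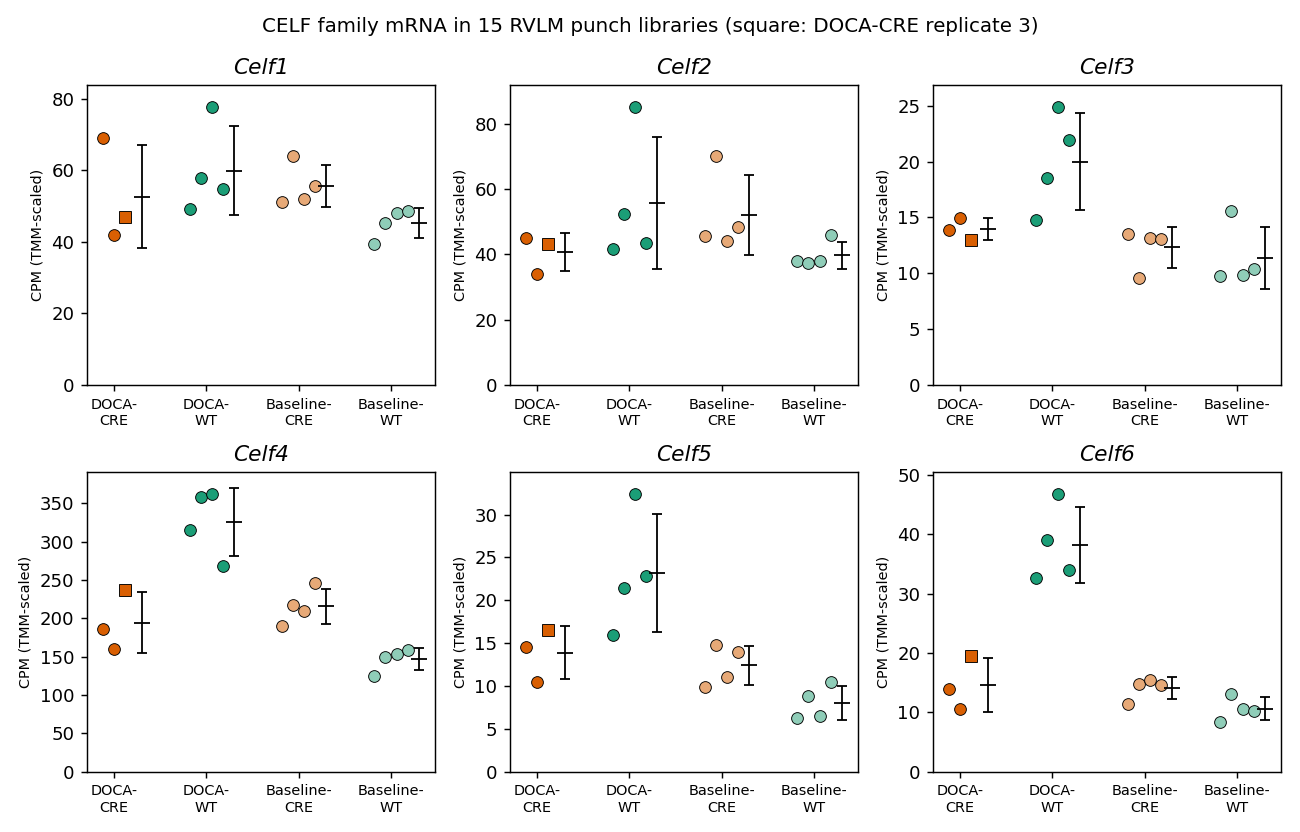
Levels of the 6 CELF genes in TMM-scaled CPM (y axis, from 0) in the 15 libraries, with DOCA-CRE, DOCA-WT, Baseline-CRE and Baseline-WT groups from left to right. Each point is a library, the bar beside it is the group mean ± SD, and the square is the library labelled DOCA-CRE replicate 3. Celf6 lies between 32.7 and 46.8 CPM in DOCA-WT libraries and at or below 19.5 CPM in the other groups, whereas Celf1 overlaps among most groups.

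The second comparison set Cre-virus mice on DOCA-salt against control-virus mice on DOCA-salt. All 6 members had a fitted difference below 0, as did 45.7% of all genes, and none of Celf1 to Celf5 passed the test. Only 3 genes of 14852 (0.0202%) were called in either direction and 2 (0.0135%) were called lower, while 2140 had an unadjusted p under 0.05. The median log2 difference was -0.52 over Celf1 to Celf5 and 0.02 over all genes.

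Celf6 measured 14.0, 10.5 and 19.5 CPM in DOCA-CRE libraries, against the 32.7 to 46.8 CPM of DOCA-WT libraries. The ranges were far apart, and the highest DOCA-CRE value came from the library labelled DOCA-CRE replicate 3. The fitted log2 difference was -1.38 (SE 0.20), or 0.383-fold, and -1.64 without that library. Celf4 measured 186, 160 and 237 CPM in DOCA-CRE libraries, against 268 to 362 CPM in DOCA-WT libraries. The ranges were separate, a pattern in the lower direction that 4.84% of genes showed. Its log2 difference was -0.74 (SE 0.14), which missed the threshold (edgeR adjusted p = 0.0823). Without the library labelled DOCA-CRE replicate 3, when 1.04% of genes were called lower, the difference of Celf4 was -0.91 (edgeR adjusted p = 0.0123), and without DOCA-WT replicate 4 it was -0.82 (edgeR adjusted p = 0.0344). The call was also made with DESeq2 (Benjamini-Hochberg adjusted p = 0.000717), with edgeR's likelihood ratio test (adjusted p = 0.00203) and with no filter on low counts (edgeR adjusted p = 0.0389). Over all alternatives the adjusted p of Celf4 ran from 0.000717 to 0.429.

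The other members overlapped between the groups. Celf5 measured 14.6, 10.5 and 16.5 CPM in DOCA-CRE libraries, with its highest value above the lowest DOCA-WT library at 15.9 CPM, and its log2 difference was -0.74 (95% interval -1.25 to -0.23, edgeR adjusted p = 0.193). Celf3 measured 13.9, 14.99 and 13.0 CPM in DOCA-CRE libraries, against 14.7 to 24.9 CPM in DOCA-WT libraries, and its log2 difference was -0.52 (95% interval -0.93 to -0.11, edgeR adjusted p = 0.244). The Celf3 values of DOCA-CRE libraries were tight and sat at the low end of the DOCA-WT range. Celf2 measured 44.9, 34.0 and 43.2 CPM in DOCA-CRE libraries, against 41.6 to 85.1 CPM in DOCA-WT libraries (log2 difference -0.45, 95% interval -0.92 to 0.02, edgeR adjusted p = 0.365). Celf1 measured 68.9, 41.8 and 47.1 CPM in DOCA-CRE libraries, against 49.2 to 77.6 CPM in DOCA-WT libraries (log2 difference -0.19, 95% interval -0.55 to 0.17, edgeR adjusted p = 0.647). None of these passed without the library labelled DOCA-CRE replicate 3, when the log2 difference was -0.88 for Celf5, -0.47 for Celf3, -0.49 for Celf2 and -0.11 for Celf1 (edgeR adjusted p = 0.118, 0.293, 0.335 and 0.794). For Celf1 and Celf2 the intervals over all libraries include 0, which does not show that the groups were alike.

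The third comparison set Cre virus against control virus at baseline. All 6 fitted differences were above 0, as were 48.6% of all genes, and none of the 6 passed. No gene of the 14852 was called in either direction (0%), while 1498 had an unadjusted p under 0.05. Limma voom and DESeq2 likewise called none of Celf1 to Celf5.

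The baseline groups were separate for Celf4 and Celf1, a pattern in the higher direction that 3.89% of genes showed, while marker lists of other cells also lay to one side of 0 with no marker passing. All 4 GABAergic and glycinergic markers (median log2 difference 0.77) and all 3 glutamatergic markers (median 0.74) were above 0, and all 7 cholinergic motor neuron markers were below 0 (median -1.21). The part of these cells in the baseline differences was not tested. Celf4 measured 191, 217, 209 and 246 CPM in Baseline-CRE libraries, against 125 to 159 CPM in Baseline-WT libraries. Its log2 difference was 0.55 (SE 0.13), with an edgeR adjusted p = 0.434 that ran from 0.0771 to 0.792 over the alternatives. Celf1 measured 51.2, 63.9, 51.9 and 55.7 CPM in Baseline-CRE libraries, against 39.5 to 48.7 CPM in Baseline-WT libraries (log2 difference 0.30, SE 0.16, edgeR adjusted p = 0.544). The remaining members overlapped between the baseline groups. Celf6 measured 11.4, 14.8, 15.5 and 14.6 CPM in Baseline-CRE libraries, against 8.39 to 13.1 CPM in Baseline-WT libraries (log2 difference 0.41, SE 0.19, edgeR adjusted p = 0.486). That comparison shares its Baseline-WT libraries with those through which Celf6 was noted. Celf5 measured 9.93, 14.8, 11.02 and 13.96 CPM in Baseline-CRE libraries, against 6.22 to 10.5 CPM in Baseline-WT libraries (log2 difference 0.64, SE 0.23, edgeR adjusted p = 0.44). Celf2 measured 45.7, 70.2, 44.1 and 48.3 CPM in Baseline-CRE libraries, against 37.4 to 46.0 CPM in Baseline-WT libraries (log2 difference 0.39, SE 0.21, edgeR adjusted p = 0.535). Celf3 measured 13.5, 9.58, 13.1 and 13.1 CPM in Baseline-CRE libraries, against 9.72 to 15.6 CPM in Baseline-WT libraries (log2 difference 0.12, SE 0.18, edgeR adjusted p = 0.87).

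The fourth comparison set Cre-virus mice on DOCA-salt against Cre-virus mice at baseline, and here no member passed. Over all genes 6.46% were called, 2.69% higher and 3.77% lower, and 3826 genes had an unadjusted p under 0.05. Fitted differences were below 0 for Celf1, Celf2 and Celf4 and above 0 for Celf3, Celf5 and Celf6, and the groups overlapped for all 6, whereas 20.5% of all genes had separate groups. Celf6 averaged 14.7 ± 4.5 CPM in DOCA-CRE libraries (SD, n = 3) and 14.1 ± 1.8 CPM in Baseline-CRE libraries (SD, n = 4). Its log2 difference was 0.05 (95% interval -0.37 to 0.47, edgeR adjusted p = 0.896) and -0.20 without the library labelled DOCA-CRE replicate 3. The comparison shares its DOCA-CRE libraries with one through which Celf6 was noted. Celf4 averaged 195 ± 39 CPM in DOCA-CRE libraries and 216 ± 23 CPM in Baseline-CRE libraries, with a log2 difference of -0.15 (95% interval -0.45 to 0.15, edgeR adjusted p = 0.543). The other 4 members had log2 differences between -0.36 for Celf2 and 0.18 for Celf3, with edgeR adjusted p-values from 0.324 to 0.805. Without the library labelled DOCA-CRE replicate 3 no member passed either, with log2 differences of -0.31 for Celf4 and between -0.40 for Celf2 and 0.23 for Celf3 among the other tested members.

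The difference between those DOCA-salt differences, that of Cre mice minus that of WT mice, was tested as an interaction. It was below 0 for all 6 members, as for 45.5% of all genes. Celf4 alone of Celf1 to Celf5 passed, with an interaction of -1.30 on the log2 scale (SE 0.19, 95% interval -1.71 to -0.89, edgeR adjusted p = 0.0196) and rank 1 by p among the 14852 genes. Of all genes 0.478% were called in the lower direction and 0.0337% in the higher. Celf5 had an interaction of -1.38 (SE 0.33, 95% interval -2.08 to -0.67), which missed the threshold (edgeR adjusted p = 0.0667). Celf2 followed at -0.84 (SE 0.30, edgeR adjusted p = 0.18), Celf3 at -0.63 (SE 0.27, edgeR adjusted p = 0.244) and Celf1 at -0.48 (SE 0.23, edgeR adjusted p = 0.31). Without the library labelled DOCA-CRE replicate 3 these were -0.88, -0.58 and -0.41 (edgeR adjusted p = 0.162, 0.285 and 0.392). The value of Celf6, -1.80 (SE 0.27), or -2.05 without the library labelled DOCA-CRE replicate 3, is a description. Because the interaction combines all 4 groups, it shares libraries with every comparison above. For Celf4 it equally sets the virus difference on DOCA-salt, -0.74, against that at baseline, 0.55, and neither of these passed. With the pattern of sex-linked genes as a term, the interaction of Celf4 was again -1.30 (edgeR adjusted p = 0.0387).

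The direction of the Celf4 interaction held whichever library was left out, with values from -1.46 to -1.18, but its call did not. The edgeR adjusted p of Celf4 was 0.055 without Baseline-CRE replicate 3, 0.0612 without Baseline-CRE replicate 4, 0.0597 without Baseline-WT replicate 1 and 0.0507 without Baseline-WT replicate 3. It was 0.0595 without DOCA-CRE replicate 1, 0.0624 without DOCA-CRE replicate 2 and 0.0534 without DOCA-WT replicate 3. Without the library labelled DOCA-CRE replicate 3 it was 0.00231, with 1.9% of genes called lower. Celf5 was called without that library (interaction -1.52, edgeR adjusted p = 0.0423) and without DOCA-WT replicate 1 (interaction -1.52, edgeR adjusted p = 0.0353).

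**Figure D2:**
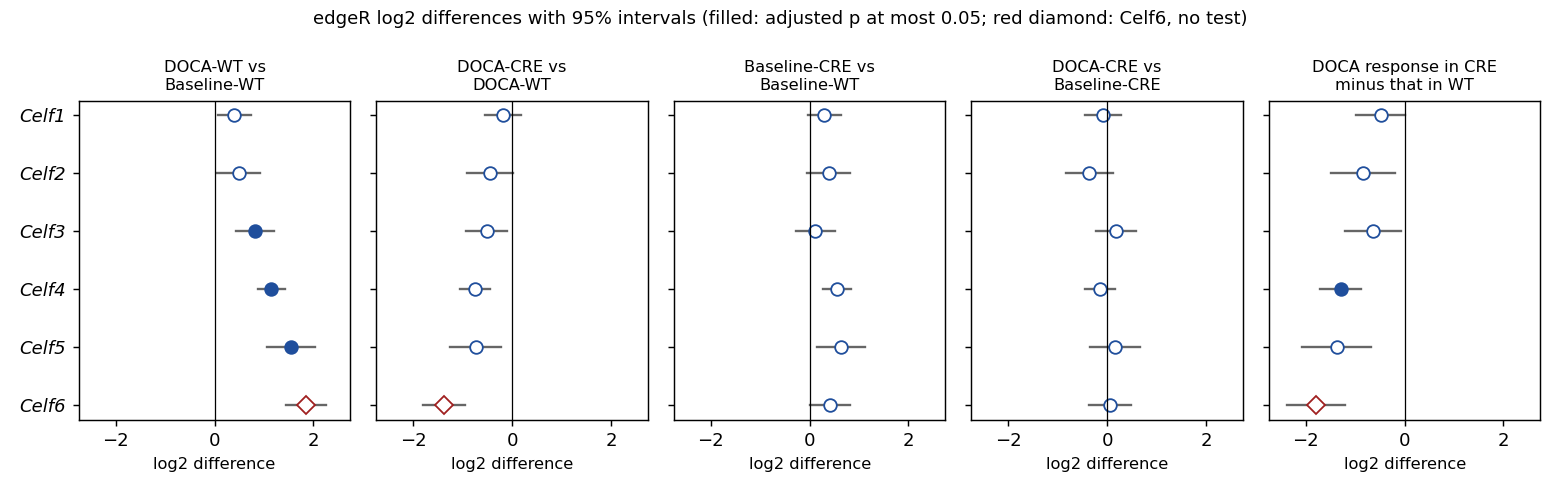
edgeR log2 differences (x axis) with 95% intervals for the 6 CELF genes (y axis) in the 4 comparisons and, at the right, the interaction. Filled circles passed at an adjusted p of at most 0.05, open circles did not, and red diamonds mark Celf6 where it is given with no test. Points step up from Celf1 at 0.40 to Celf6 at 1.85 in DOCA-WT against Baseline-WT and lie close to 0 in DOCA-CRE against Baseline-CRE.

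Levels were set side by side between genes only after division by exon length, as CPM per kilobase of the union of annotated exons, a scale that also depends on which isoforms are used. On that scale Celf4 was the highest member in every group, with a share of the family sum between 54.0 and 63.1% in all 15 libraries. The family sum was 56.2 to 77.0 CPM per kilobase in DOCA-WT libraries, against 25.8 to 32.3 in Baseline-WT libraries. The sum was 32.1 to 45.1 CPM per kilobase in DOCA-CRE libraries, against 37.1 to 45.6 in Baseline-CRE libraries. The DOCA-WT libraries were thus above all others, while the DOCA-CRE and Baseline-CRE ranges overlapped. Because the family sum includes Celf6, which was chosen for its levels, that separation is a description. The highest DOCA-CRE sum was that of the library labelled DOCA-CRE replicate 3, and the other DOCA-CRE sums were 40.2 and 32.1.

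The make-up of the family differed as well as its sum. Celf6 made up 15.5 to 16.8% of the family sum in DOCA-WT libraries, against 8.73 to 11.3% in Baseline-WT libraries. Its share was 9.04 to 11.9% in DOCA-CRE libraries and 8.47 to 10.6% in Baseline-CRE libraries. The ratio of Celf6 to Celf1, both per kilobase, was 1.41 to 1.57 in DOCA-WT libraries, against 0.489 to 0.678 in Baseline-WT libraries. In DOCA-CRE libraries that ratio was 0.474 to 0.965, and 0.474 and 0.587 without the library labelled DOCA-CRE replicate 3, and in Baseline-CRE libraries it was 0.519 to 0.698. Celf6 was therefore above Celf1 per kilobase in each of the 4 DOCA-WT libraries and below it in each of the other 11. Because Celf6 was chosen for its levels, these shares are a description. With Celf6 left out, the neuronal members Celf3 to Celf5 held 80.5 to 84.9% of the sum of Celf1 to Celf5 in DOCA-WT libraries, against 73.8 to 76.1% in Baseline-WT libraries. They held 72.8 to 81.8% in DOCA-CRE libraries, the highest value in the library labelled DOCA-CRE replicate 3, against 74.0 to 79.6% in Baseline-CRE libraries.

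The order of levels per kilobase also differed. In DOCA-WT libraries Celf4 averaged 38.0 ± 5.1 CPM per kilobase, Celf6 10.5 ± 1.8 and Celf1 7.09 ± 1.46, followed by Celf3 at 3.65 ± 0.80, Celf5 at 3.45 ± 1.02 and Celf2 at 2.15 ± 0.78 (SD, n = 4). The ranges of Celf6 and Celf1 overlapped slightly, and those of Celf3, Celf5 and Celf2 overlapped. In Baseline-WT libraries Celf4 averaged 17.1 ± 1.7, Celf1 5.37 ± 0.50, Celf6 2.92 ± 0.54, Celf3 2.08 ± 0.51, Celf2 1.54 ± 0.16 and Celf5 1.19 ± 0.30 CPM per kilobase (SD, n = 4). There each of Celf6, Celf3, Celf2 and Celf5 overlapped the next in that order. In DOCA-CRE libraries the order was Celf4 at 22.7 ± 4.6, Celf1 at 6.23 ± 1.70, Celf6 at 4.05 ± 1.25, Celf3 at 2.55 ± 0.18, Celf5 at 2.07 ± 0.46 and Celf2 at 1.57 ± 0.23 CPM per kilobase (SD, n = 3). Neighbors overlapped except Celf4 with Celf1 and Celf6 with Celf3. In Baseline-CRE libraries it was Celf4 at 25.1 ± 2.7, Celf1 at 6.59 ± 0.69, Celf6 at 3.89 ± 0.51, Celf3 at 2.25 ± 0.34, Celf2 at 2.01 ± 0.47 and Celf5 at 1.85 ± 0.34 CPM per kilobase (SD, n = 4), with the ranges of Celf3, Celf2 and Celf5 overlapping.

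**Figure D3:**
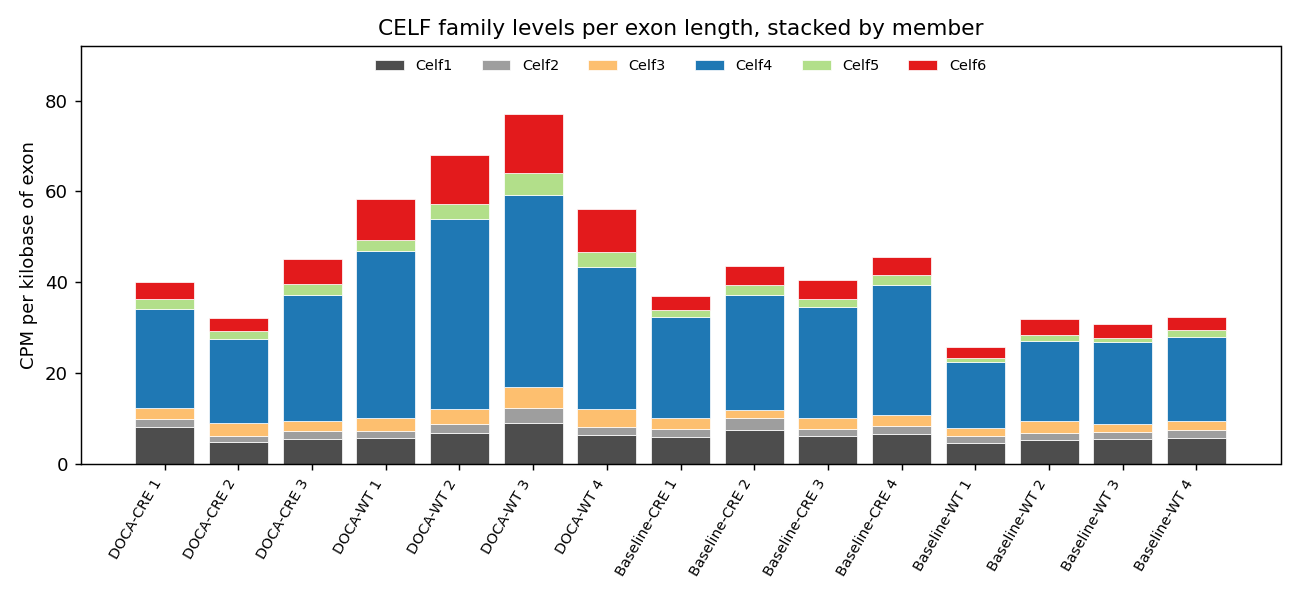
Level of each CELF gene in CPM per kilobase of exon (y axis), stacked by member, in the 15 libraries (x axis), with DOCA-CRE, DOCA-WT, Baseline-CRE and Baseline-WT libraries from left to right. The 4 DOCA-WT bars reach 56.2 to 77.0 and carry the broadest Celf6 segments, while the other bars end between 25.8 and 45.6.

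Punches are mixtures, and in bulk samples fewer cells of a type and less RNA per cell cannot be told apart. Marker lists for 15 cell types were therefore summed in each library. The 12 serotonergic markers summed to 265 to 489 CPM in DOCA-WT libraries, against 53.6 to 77.6 CPM in Baseline-WT libraries. They summed to 70.9 to 223 CPM in DOCA-CRE libraries, against 72.5 to 110.1 CPM in Baseline-CRE libraries. In DOCA-WT against Baseline-WT 11 of the 12 rose (edgeR with Benjamini-Hochberg adjustment), against 5.48% of all genes, with a median log2 difference of 2.97. Among the most abundant were Tph2, the enzyme of neuronal serotonin synthesis (log2 difference 5.32, edgeR adjusted p = 0.000179), Ddc, the next enzyme of that pathway (2.57, edgeR adjusted p = 0.000157), and Maob, which degrades monoamines (0.78, edgeR adjusted p = 0.00349). At most 1 of the 12 was at 0 in any library, and Slc6a4, the serotonin transporter, was at 0 in at least 1 library of each baseline group. In DOCA-CRE against DOCA-WT the median of the 12 was -1.43, with none passing, and the interaction passed for 1 of them, the serotonin receptor gene Htr1a (-1.89, edgeR adjusted p = 0.0302), against 0.478% of all genes called lower. In DOCA-CRE against Baseline-CRE 3 of the 12 rose, namely Tph2 (3.46, edgeR adjusted p = 0.00982), Ddc (1.29, edgeR adjusted p = 0.0267) and Slc6a4 (3.58, edgeR adjusted p = 0.0382), with a median of 1.18, against 2.69% of all genes called higher and beside a difference of 0.05 for Celf6.

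The serotonergic counts depended on the library labelled DOCA-CRE replicate 3. Without it 6 of the 12 markers fell in DOCA-CRE against DOCA-WT, with a median log2 difference of -2.17 and with Tph2 at -3.96 (edgeR adjusted p = 0.0022), against 1.04% of all genes called lower. In the interaction 3 of the 12 then passed, all lower, against 1.9% of all genes. In DOCA-CRE against Baseline-CRE Tph2 rose (1.86, edgeR adjusted p = 0.0119) and Htr1a fell (-1.06, edgeR adjusted p = 0.0115), with a median of 0.26 over the list, against 4.51% of all genes called higher and 6.46% lower.

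Tph2 was set beside Celf6 library by library. Tph2 measured 6.69, 6.80 and 48.9 CPM in DOCA-CRE libraries, the last in the library labelled DOCA-CRE replicate 3, against 91.2, 63.1, 97.8 and 170 CPM in DOCA-WT libraries. That library also had the highest Celf6 and Celf4 levels of its group. In DOCA-WT libraries the order was not shared, since Tph2 was highest in replicate 4 and Celf6 in replicate 3. Tph2 ran from 1.33 to 2.59 CPM in Baseline-CRE libraries and from 1.40 to 4.30 CPM in Baseline-WT libraries. The other DOCA-CRE libraries were thus above every Baseline-CRE library for Tph2, whereas their Celf6 levels, 14.0 and 10.5 CPM, lay within and below the Baseline-CRE range of 11.4 to 15.5 CPM.

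The other lists were counted in DOCA-WT against Baseline-WT, where 5.48% of all genes were called higher and 6.12% lower. Of 8 catecholaminergic C1 markers 5 rose, with a median log2 difference of 1.77 and a summed level of 55.3 to 107 CPM in DOCA-WT libraries, against 35.8 to 48.0 CPM in Baseline-WT libraries. Among the more abundant of them were Dbh, which makes noradrenaline (log2 difference 1.88, edgeR adjusted p = 0.0085), and the peptide gene Cartpt (log2 difference 1.67, edgeR adjusted p = 0.00397). At most 1 of the 8 was at 0 in any library. Of 4 GABAergic and glycinergic markers 2 rose, of 5 cerebellar markers tested 1 rose and of 5 red blood cell markers 4 fell. Of the glial and vascular lists, 1 of 8 astrocyte markers was called higher, and 1 of 8 oligodendrocyte, 1 of 5 oligodendrocyte precursor, 1 of 8 microglial and 2 of 6 pericyte and smooth muscle markers lower, counts too small to be read against that background, while no endothelial, ependymal or glutamatergic marker passed. In DOCA-CRE against DOCA-WT no marker of any list passed, and without the library labelled DOCA-CRE replicate 3 the synaptic vesicle gene Syt1 and the cerebellar marker Cbln1 passed, both lower, beside the serotonergic markers. Cholinergic motor neuron markers summed to 82.6 to 1339 CPM in DOCA-WT libraries, against 1266 to 1869 CPM in Baseline-WT libraries, with none of 7 passing. Of 12 pan-neuronal markers 3 rose, among them Syt1 (log2 difference 1.49, edgeR adjusted p = 0.00966) and the growth cone gene Gap43 (1.06, edgeR adjusted p = 0.00259), while none fell. The neurofilament genes Nefm and Nefl were at -0.83 and -0.77 (edgeR adjusted p = 0.15 and 0.137). The pan-neuronal list had a median log2 difference of -0.01 and summed to 12717 to 20380 CPM in DOCA-WT libraries, against 15939 to 20850 CPM in Baseline-WT libraries. The most abundant cerebellar and glutamatergic signals were in DOCA-WT replicate 3, at 234 and 424 CPM, the library with the highest Celf1, Celf2, Celf3, Celf4, Celf5 and Celf6 levels. DOCA-CRE replicate 2 also differed from replicates 1 and 3 of its group, with cholinergic markers at 1898 CPM, against 623 and 684 CPM. Its GABAergic and glycinergic markers were at 398 CPM, against 1411 and 1387 CPM. It had the lowest Celf1, Celf2, Celf4, Celf5 and Celf6 and the highest Celf3 levels of its group, and it remains when DOCA-CRE replicate 3 is left out. The part of these lists, and of the mitochondrial RNA share, in the differences of the CELF genes was not tested.

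Markers of other cells also moved with the Celf4 interaction. Outside the serotonergic list 1 marker passed, the cerebellar gene Cbln1 (-2.52, edgeR adjusted p = 0.0358). Th, the rate-limiting enzyme of catecholamine synthesis, was at -2.60 (edgeR adjusted p = 0.0554), Syt1 at -2.20 (edgeR adjusted p = 0.0533), Gap43 at -1.16 (edgeR adjusted p = 0.0611) and Slc17a6, a vesicular glutamate transporter gene, at -1.25 (edgeR adjusted p = 0.097). Without the library labelled DOCA-CRE replicate 3, Cbln1, Th, Syt1 and Gap43 passed at -2.82, -2.73, -2.59 and -1.37 (edgeR adjusted p = 0.0168, 0.042, 0.016 and 0.0174). Of all genes 1.9% were then called lower. The astrocyte marker Aldh1l1 passed in the other direction (0.62, edgeR adjusted p = 0.0342), and Slc17a6 did not pass (-1.38, edgeR adjusted p = 0.0665). All 12 serotonergic, 5 cerebellar, 4 GABAergic and glycinergic and 3 glutamatergic markers were below 0, with medians of -1.86, -2.28, -1.24 and -1.25, as were 5 of 8 C1 markers (median -1.36). All 7 cholinergic motor neuron markers (median 1.99) and all 5 red blood cell markers (median 1.02) were above 0, and 6 of 12 pan-neuronal markers were (median -0.02). The part of these cells in the interaction was not tested.

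**Figure D4:**
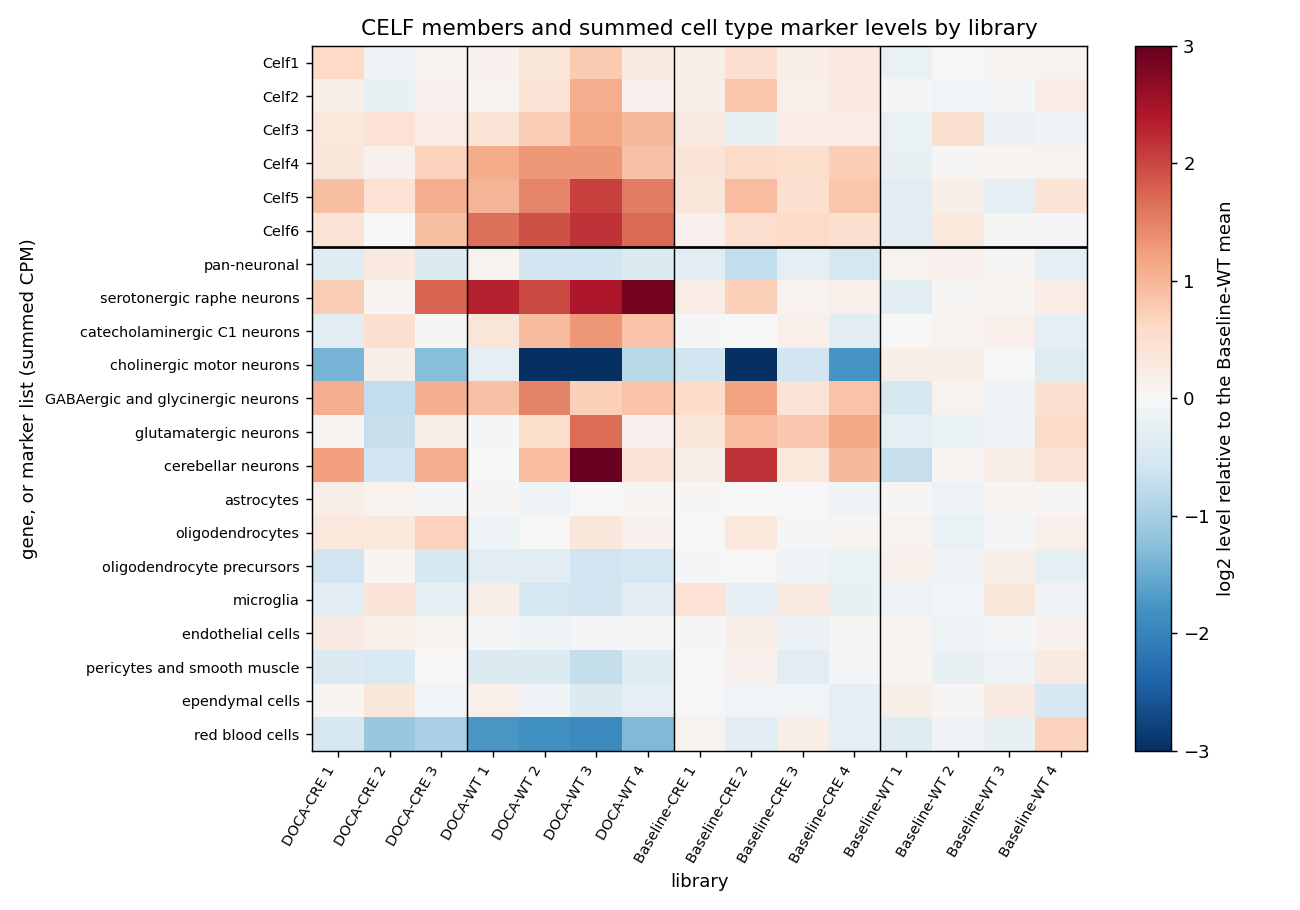
Levels of the 6 CELF genes (top) and summed CPM of 15 cell type marker lists (below the line) as log2 relative to the Baseline-WT mean, by library, with DOCA-CRE, DOCA-WT, Baseline-CRE and Baseline-WT libraries from left to right. Red is above and blue below that mean, and the color scale stops at 3 in either direction. The serotonergic row and the Celf6 row are each darkest in the 4 DOCA-WT libraries, while the summed pan-neuronal row stays pale.

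The genes whose pattern over the 15 libraries was nearest to that of Celf6 were found by the root mean square difference of centred log2 CPM, over 13949 genes with a mean of at least 1 CPM. The nearest were Dlk1, a Notch-related membrane protein gene (0.30), Nptxr, a neuronal pentraxin receptor gene (0.31), Scg2, a secretogranin of dense-core vesicles (0.31), Scn3b, a sodium channel beta subunit gene (0.33), and Pnma3, a paraneoplastic antigen gene (0.33). Celf5 was the gene in place 6 (0.33), Celf4 in place 13 (0.36) and Celf3 in place 97 (0.50). Celf2 and Celf1 stood at places 833 and 891, and Tph2 at place 13898 (1.84). The measure takes in the size of the differences, and Tph2 differed far more than Celf6. All these genes share libraries and depth, and the distances are a description. Dlk1 averaged 59.7 CPM in DOCA-CRE libraries, 129.6 in DOCA-WT, 61.2 in Baseline-CRE and 35.1 in Baseline-WT libraries.

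Splicing regulators outside the family were followed for comparison, in a list of 28 that holds the MBNL, RBFOX, NOVA, PTBP, ELAVL and related genes, of which 27 were tested. In DOCA-WT against Baseline-WT 4 rose and 4 fell, against 5.48% of all genes called higher and 6.12% lower, and the median log2 difference was 0.02, against 0.82 over Celf1 to Celf5 and 0.00 over all genes. The MBNL genes, which counter CELF proteins on shared exons, were among those that fell, with Mbnl1 at -0.36 (edgeR adjusted p = 0.0077) and Mbnl2 at -0.40 (edgeR adjusted p = 0.013). Qk, a regulator of myelin-related splicing in glia, fell by 0.46 on the log2 scale (edgeR adjusted p = 0.00486), and Tial1, which binds U-rich RNA, rose by 0.42 (edgeR adjusted p = 0.0174). None of the 27 passed in DOCA-CRE against DOCA-WT, in Baseline-CRE against Baseline-WT or in the interaction, with medians of -0.04, 0.04 and -0.09. In DOCA-CRE against Baseline-CRE 3 fell and 0 rose, against 3.77% of all genes called lower and 2.69% higher. These were Mbnl1 (-0.37, edgeR adjusted p = 0.0189), Ptbp3, a polypyrimidine tract binder (-0.54, edgeR adjusted p = 0.0442), and Elavl1, a stabilizer of AU-rich mRNA (-0.30, edgeR adjusted p = 0.0497). Without the library labelled DOCA-CRE replicate 3, Mbnl1 (-0.41, edgeR adjusted p = 0.0113), Ptbp3 (-0.72, edgeR adjusted p = 0.0105) and its neuronal paralog Ptbp2 fell, Srrm4, a regulator of neuronal microexons, rose, and Elavl1 did not pass (-0.30, edgeR adjusted p = 0.062), when 6.46% of all genes were called lower and 4.51% higher. In the other comparisons with DOCA-CRE none of the 27 passed without it. Mbnl1 was lower on DOCA-salt with either virus, and no CELF gene passed with the Cre virus. Ptbp3 was likewise lower with either virus, at -0.52 in DOCA-WT against Baseline-WT (edgeR adjusted p = 0.0257), so this was not particular to Mbnl1.

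**Figure D5:**
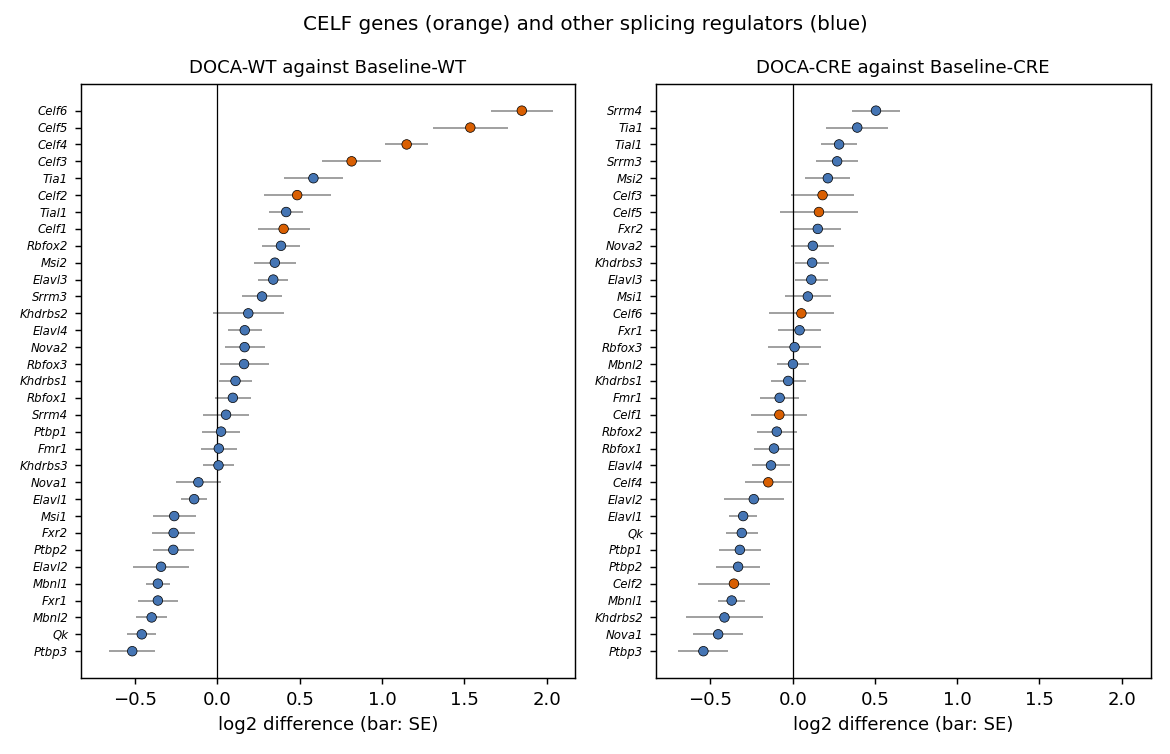
log2 differences (x axis; bars are SE) of the 6 CELF genes (orange) and 27 other splicing regulators (blue), ordered by size (y axis), in DOCA-WT against Baseline-WT (left) and DOCA-CRE against Baseline-CRE (right). On the left the 4 largest differences, 0.82 to 1.85, belong to Celf3, Celf4, Celf5 and Celf6, and on the right the CELF genes lie between -0.36 and 0.18 among the rest.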

How the data were processed

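RNA from bilateral RVLM punches of 15 mice was sequenced after a low-input stranded SMART-seq preparation. Per the authors' methods, reads were aligned with STAR in the MAPR-Seq pipeline to GRCm38.p6 with Gencode vM23. The counter and its strand setting were not given in the sources used here. The authors deposited raw counts per gene, which were used. Deposited tables of their own comparisons (fold changes, FDR, and counts and RPKM of called genes) were not used.

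Counts were fitted in edgeR 4.0.16 (R 4.3.3) with TMM scaling, a term per group over all 15 libraries and the quasi-likelihood test, for protein-coding genes with CPM above 1 in at least 1 library (14852 of 21926), with Benjamini-Hochberg adjustment over all of them and a threshold of 0.05. The study's added limit of a fold change was not applied. Levels are TMM-scaled CPM over tested genes. Likeness used log2 CPM with a prior count of 2. Exact permutation tests were two-sided, by the absolute difference of means. DESeq2 1.42.0, limma 3.58.1 (voom), other scalings and filters, a sex term, and leaving out each library were alternatives. The fit was tested on simulated data.

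The members and gene lists were chosen with earlier results of these data known. Named genes were every member, Atp6ap2, Tph2, the 5 genes nearest to Celf6, up to 4 splicing regulators with the smallest p in a comparison in which any passed, and up to 3 most abundant markers of a list that moved, of which 1 marker is not reported here. Riiad1, Slc6a4, Htr1a, Syt1, Gap43, Nefm, Nefl, Cbln1, Th, Slc17a6, Aldh1l1, Ptbp2 and Srrm4 were added after their values were seen. Counting the lists without the library labelled DOCA-CRE replicate 3 was an alternative chosen after seeing the data. Replicates of a group differed by more than counting noise (lowest chi-square per degree of freedom 5.48), and all were kept as separate samples.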

Additional observations from a re-analysis of the deposited data

Results flagged for a closer look

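The DOCA-salt difference of Celf4 in Cre mice differed from that in WT mice, with an interaction of -1.30 on the log2 scale (edgeR adjusted p = 0.0196). That call was lost when any one of 7 libraries was left out (edgeR adjusted p = 0.0507 to 0.0624).

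Some libraries stood apart from the other 3 of their group by Dixon's test. Celf2 was high in Baseline-WT replicate 4, at 46.0 CPM, and in Baseline-CRE replicate 2, at 70.2 CPM. Celf3 was high in Baseline-WT replicate 2, at 15.6 CPM, and low in Baseline-CRE replicate 2, at 9.58 CPM. There were 18 such groups of 4 libraries, and chance would give about 1 in 20.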

How the results depend on the processing

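In DOCA-WT against Baseline-WT, 3 or 4 of Celf1 to Celf5 passed under all 20 alternatives, and Celf6 kept its sign there and in the other comparisons except as given next. In DOCA-CRE against Baseline-CRE the difference of Celf6 was -0.037 without Baseline-CRE replicate 1 and -0.20 without the library labelled DOCA-CRE replicate 3 (range -0.20 to 0.25 over libraries left out), and that of Celf1 was 0.000885 without Baseline-CRE replicate 2 and 0.061 without DOCA-CRE replicate 2 (range -0.32 to 0.061). In DOCA-CRE against DOCA-WT the count passing was 1, Celf4, with DESeq2, the likelihood ratio test and no low-count filter, and 0 to 1 over libraries left out. For the interaction it was 2, Celf4 and Celf5, with DESeq2, the likelihood ratio test, library totals alone and no low-count filter, and 0 to 2 over libraries left out. The causes were not tested, except that fewer samples enter when a library is left out. Counts were 0 in all alternatives for both other comparisons. Library totals alone moved the median of all genes to 0.12 in DOCA-WT against Baseline-WT. A fit of only the groups compared gives no interaction.

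With the replicate number as a block, counts passing were 3, 0, 0 and 0 in the 4 comparisons and 1 for the interaction, and no call of a member changed. Across groups the mean correlation of deviations was 0.010 for the same number and -0.003 for different numbers. The numbers were therefore not taken to pair mice, although 9 of 21 same-numbered pairs had a correlation above 0.1.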
